A study of Mus musculus with 16 samples.

Results

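The LPS response of RAW264.7 cells that had been given cordycepin was read as the difference between the 4 LPS+cordycepin arrays and the 4 cordycepin arrays, 8 of the 16 arrays of the series, over all probes that are not controls. RAW264.7 is a mouse cell line with macrophage features, and cordycepin is an adenosine analogue that inhibits polyadenylation. All cells were kept in medium with 0.5% serum for 24 h. Cordycepin at 20 µM, dissolved in DMSO, was then present for 60 min before LPS at 1 µg/ml was added for 60 min (LPS+cordycepin), or was present for the same 120 min with no LPS (cordycepin). In the matching groups without the drug, DMSO and LPS+DMSO, the vehicle took its place. Each group held 4 cultures of this 1 line, and every replicate number was a separate day on which the cultures of all 4 groups were collected from 1 plate. The drug was always given before LPS, and only 1 time after LPS was measured.

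LPS, a component of the outer membrane of Gram-negative bacteria, is sensed on macrophages by Toll-like receptor 4. The adaptors behind the receptor activate NF-kB and the MAP kinases, and within the first hour these induce immediate early transcription factors, then cytokines and chemokines, together with the inhibitors and phosphatases that end the signal. Nearly all mRNAs need cleavage and the addition of a poly(A) tail at their 3′ end before export and translation, and transcription normally terminates after that cleavage.

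RNA was labelled with Cy3 by a kit that primes from the poly(A) tail and read on 1-colour Agilent arrays, so that fewer transcripts and fewer tailed transcripts cannot be told apart. Levels are given as scaled log2 signal, the log2 of the spot intensity after each array was set to a common 75th percentile, and changes are differences of these levels. The scanner software placed 21999 to 30362 of 59305 spots well above background, 21999 to 26055 on the slide with replicates 1 and 2 and 27262 to 30362 on the slide with replicates 3 and 4. No spot was saturated. Of 10 macrophage markers, 9 were well above background on all 8 arrays, with a summed level of 18.55 to 18.67 in cordycepin and 18.59 to 18.79 in LPS+cordycepin. Markers of other cell types were detected in part. Those of T cells were well above background on all 8 arrays for 3 of 6 genes, those of endothelial cells for 2 of 5 and those of neutrophils for 2 of 6. Fibroblast and epithelial markers were well above background on all 8 arrays for 0 of 6 and 0 of 5 genes. For B cells this was also 0 of 5, and Ms4a1 was not detected on any of the 8 arrays, but the summed B cell level was 6.93 to 7.47 without LPS and 8.67 to 10.20 with LPS, through Cd79a and Cd79b. In these bulk cultures fewer cells of a type and less RNA per cell cannot be told apart. Some arrays stood apart from the other 3 of their group. DMSO replicate 2 was over 2-fold from their median for 969 of the genes tested, LPS+cordycepin replicate 2 for 739 and LPS+cordycepin replicate 4 for 565, against 57 to 348 for each of the other arrays. The number of arrays limits the precision of every value.

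After LPS, 271 of 15875 genes tested were raised in cordycepin-treated cells (1.71%) and 189 were lowered (1.19%), where a call needed a change of 2-fold or more and, in limma with Benjamini-Hochberg adjustment across every gene tested, a p under 0.05. The genes raised had a median log2 change of 1.77, with quartiles of 1.32 and 2.73, and 270 of 271 were higher in LPS+cordycepin in all 4 same-day pairs. The same held for 2228 of all 15875 genes tested. The calls were made on these same arrays, so the pairs give no separate support. The same applies wherever the groups of a called gene are said below not to overlap. A rise of at least 4-fold was seen for 115 and of at least 16-fold for 26. Without LPS+cordycepin replicate 2 the counts were 281 raised and 195 lowered, and without LPS+cordycepin replicate 4 they were 238 and 187. The falls were smaller, with a median of -1.36 and 24 genes at 4-fold or more, and 189 of 189 were lower in all 4 pairs, beside 3272 of all 15875 genes tested. By kind, 202 genes raised and 97 lowered were RefSeq genes, 25 and 29 were lincRNA regions, which are intergenic transcribed regions named by position, and the others were transcripts without a RefSeq match. With the arrays scaled to the spiked-in control RNA the median of all genes moved from -0.04 to -0.36, and the share of raised genes among the calls went from 58.9% to 41%, whereas normexp background correction gave 74.3%.

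Before LPS, 22 of the 271 genes raised were well above background on no cordycepin array, so that only a lower limit of the rise is known. The limit sets the mean of LPS+cordycepin against the dimmest spot that was well above background on each cordycepin array. The largest limit was that of Ifnb1, the gene of interferon beta, at 38.8-fold or more. Il1b followed with at least 22.6-fold, Egr1 with at least 18.3-fold, Dusp8 with at least 11.8-fold and Astl, which encodes an egg protease, with at least 6.47-fold.

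Chemokine genes, whose products attract leukocytes, held the largest rises. Cxcl2, a neutrophil attractant, was read by a probe at chr5:91334534-91334593 (mm9) at 7.91, 7.61, 7.41 and 7.84 on cordycepin replicates 1 to 4 and at 15.32, 15.43, 15.23 and 14.73 on those of LPS+cordycepin. No array of one group came near the other, and the log2 change was 7.49 ± 0.58 (SE, adjusted p = 3.4e-07, limma). Cxcl10, an attractant of T cells, gave 10.05, 9.45, 9.48 and 9.64 without LPS against 16.49, 16.28, 16.46 and 16.48 with it, a change of 6.77 ± 0.42. Of the 22 chemokines listed, 13 were tested, and 7 were raised and none lowered, with a median of 2.05 beside -0.04 for all genes. Ccl4 (3.81), Ccl2 (2.69), Ccl3 (2.36) and Ccl7 (2.12), which attract monocytes and other leukocytes, were among them, as was Ccl12 (1.22, adjusted p = 0.0254, limma). The call of Ccl12 was lost, with changes of 1.06 to 1.22, when cordycepin replicate 3 or 4 or LPS+cordycepin replicate 1, 3 or 4 was left out, and without all arrays of replicate 2 (1.41), 3 (1.10) or 4 (1.07). Ccl5 (1.25, adjusted p = 0.168, limma) did not pass the threshold, but did without DMSO replicate 2, at the same change, or without all arrays of replicate 2 (1.37).

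Cytokine genes were raised in 9 of 18 tested and lowered in none, out of 32 listed, with a median of 1.28. Tnf, which encodes a central inflammatory cytokine, was at 11.57, 11.38, 11.69 and 11.57 in cordycepin and at 16.56, 16.73, 16.77 and 16.84 in LPS+cordycepin. These values do not overlap, and the change of 5.18 ± 0.12 had the smallest adjusted p of the cytokines tested (5.32e-13, limma). Ifnb1 lay between 2.88 and 3.99, not above background, and reached 10.32 to 10.45 with LPS. Il1b, the gene of interleukin-1 beta, lay between 3.58 and 4.86 in cordycepin and reached 8.93, 9.42, 9.79 and 10.29. Csf3 (at least 3.38-fold), Osm (2.91), Gdf15 (2.84) and Tnfsf9 (2.65) also rose, as did Hbegf (1.17) and Vegfa (1.06), both near the 2-fold minimum. Without cordycepin replicate 2, Vegfa changed by 0.99 and was no longer called, and the call of Hbegf was lost without all arrays of replicate 1 (0.98) or 2 (1.09). Il6 was well above background on no array of either cordycepin group (1.38, adjusted p = 0.383, limma). Csf1, the gene of the macrophage growth factor, changed by 1.74 with an adjusted p of 0.055, and of 0.0237 with the culture day as a block (limma). It was also past the threshold, at the same change, when DMSO replicate 2, 3 or 4 was left out, and without all arrays of replicate 2 (1.76).

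The RefSeq promoters (GRCm38.p6), from 250 bases before to 50 after the transcription start, were searched for motifs of the factors that LPS activates, on both strands. They were a kB motif read as GGGNNNNNCC, the cyclic AMP response element TGACGTCA, the AP-1 motif TGANTCA and the CArG box. Windows are shown for genes with large rises, to let a reader see which elements lie beside which gene, with the motif in capitals and 10 bases on each side.
Cxcl2, chr5:90903792-90903821, plus strand: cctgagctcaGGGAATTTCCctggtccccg
Cxcl10, chr5:92349029-92349058, minus strand: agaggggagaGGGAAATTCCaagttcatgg
Ifnb1, chr4:88522891-88522920, minus strand: aactgaaagtGGGAAATTCCtctgaggcag
Nfkbia, chr12:55492657-55492686, minus strand: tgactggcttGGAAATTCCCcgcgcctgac
Egr2, chr10:67537787-67537816, plus strand: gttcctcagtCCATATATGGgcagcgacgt
Zfp36, chr7:28379267-28379296, minus strand: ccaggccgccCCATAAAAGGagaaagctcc
Dusp8, chr7:142095374-142095401, minus strand: cccgctccgcTGACGTCAcctgcccccg
Dusp1, chr17:26508598-26508625, minus strand: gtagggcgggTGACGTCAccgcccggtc
Maff, chr15:79347481-79347508, plus strand: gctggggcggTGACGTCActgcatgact
All are written along the strand of the gene. The kB motif of Nfkbia matches on the opposite strand. One window is shown per gene, and genes can hold several motifs. The windows of Egr2 and Zfp36 show a CArG box, the element bound by serum response factor, and those of Dusp8, Dusp1 and Maff the cyclic AMP response element, but promoters of Egr2, Zfp36, Dusp1 and Maff also hold kB motifs. Some of these kB matches overlap each other, and some of those of Egr2 and Maff lie in another promoter of the gene. No kB motif was found in the promoters of Il1b, Junb, Traf1, Ccl3 and Dusp8, which rose too. Of all 32851 promoters in the table, 300 bases each, 50.8% hold the kB motif, 1.79% the cyclic AMP response element, 7.81% the AP-1 motif and 1.63% a CArG box. Only 157 of the 202 RefSeq genes raised have a promoter in the table, under the 80% needed, so no share is compared between gene groups.

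Of 31 immediate early transcription factors tested, 19 were raised, none was lowered and the other 12 were not called, with a median of 1.38. Fos, a subunit of AP-1, was at 6.07, 5.97, 6.59 and 6.45 in cordycepin and at 10.83, 10.69, 10.98 and 10.73 in LPS+cordycepin. Egr2, a zinc finger factor of the early growth response family, went from 8.09, 8.13, 8.40 and 8.64 to 12.68, 12.88, 12.62 and 12.72. All 4 LPS arrays were above all 4 others for both genes, and the changes were 4.54 ± 0.15 (adjusted p = 2.51e-11) and 4.41 ± 0.29 (adjusted p = 7.22e-08, limma). Ier3, an early response gene that acts on cell survival, rose by 4.49, Maff by 4.41, Junb by 4.10 and Nr4a1, an orphan nuclear receptor, by 4.04. Kdm6b, a histone demethylase outside this list, rose by 4.04 as well. Smaller rises were those of Csrnp1 (3.20), Ier2 (3.13), Btg2 (3.10), Jun (1.96) and Ier5 (1.38). Srf, the gene of serum response factor itself, changed by 0.76 and did not reach 2-fold.

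Of the NF-kB subunits, inhibitors and feedback genes, 8 of 21 tested were raised, none was lowered and 13 were not called, with a median of 0.83. Tnfaip3, which encodes the deubiquitinase A20, gave 9.80, 9.31, 9.59 and 9.54 without LPS and 13.45, 13.66, 13.59 and 13.77 with it. Its groups do not overlap, and the change was 4.05 ± 0.13 (adjusted p = 2.54e-11, limma). Nfkbiz (4.04), Traf1 (3.47), Nfkbia (2.55), Nfkbid (2.02), Birc3 (1.37) and Relb (1.33) rose too. The call of Nfkbie (1.03), an inhibitor like Nfkbia, was lost without cordycepin replicate 4, LPS+cordycepin replicate 2 or LPS+cordycepin replicate 4, each at 1.00, and without all arrays of replicate 2 (0.99) or 4 (0.97). Nfkb2 (0.98) stayed just under 2-fold and passed without cordycepin replicate 1 (1.02) or LPS+cordycepin replicate 1 (1.04), or without all arrays of replicate 1 (1.08) or 2 (1.02).

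Phosphatases, cytokine signalling suppressors and mRNA decay factors held 15 raised and 1 lowered gene among 29 tested, with a median of 1.20, or 0.99 with genes not above background before LPS at their limits. Zfp36, which encodes tristetraprolin, the factor that binds AU-rich elements and speeds decay of cytokine mRNAs, read 5.01, 3.99, 5.52 and 4.43 in cordycepin, where 1 array of 4 was well above background, and 10.34, 10.09, 10.69 and 10.89 with LPS. That is a change of 5.76 ± 0.31 (adjusted p = 6.02e-09, limma), whose size rests on a dim starting level. Dusp1, the phosphatase of p38 and JNK, went from 6.88, 6.99, 7.26 and 7.46 to a range of 10.90 to 11.26, a change of 3.90 ± 0.22. Ppp1r15a (3.82), which directs a phosphatase to the initiation factor eIF2, Pde4b (2.96), Dusp2 (2.85), Zc3h12a (2.73), Socs3 (2.46) and Trib1 (2.03) rose as well. Dusp6, the ERK phosphatase, was the member that fell. It was at 11.03, 11.13, 11.03 and 11.04 in cordycepin and at 10.12, 9.92, 9.66 and 9.41 with LPS, below every cordycepin array (-1.28 ± 0.16, adjusted p = 8.08e-05, limma).

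**Figure D1:**
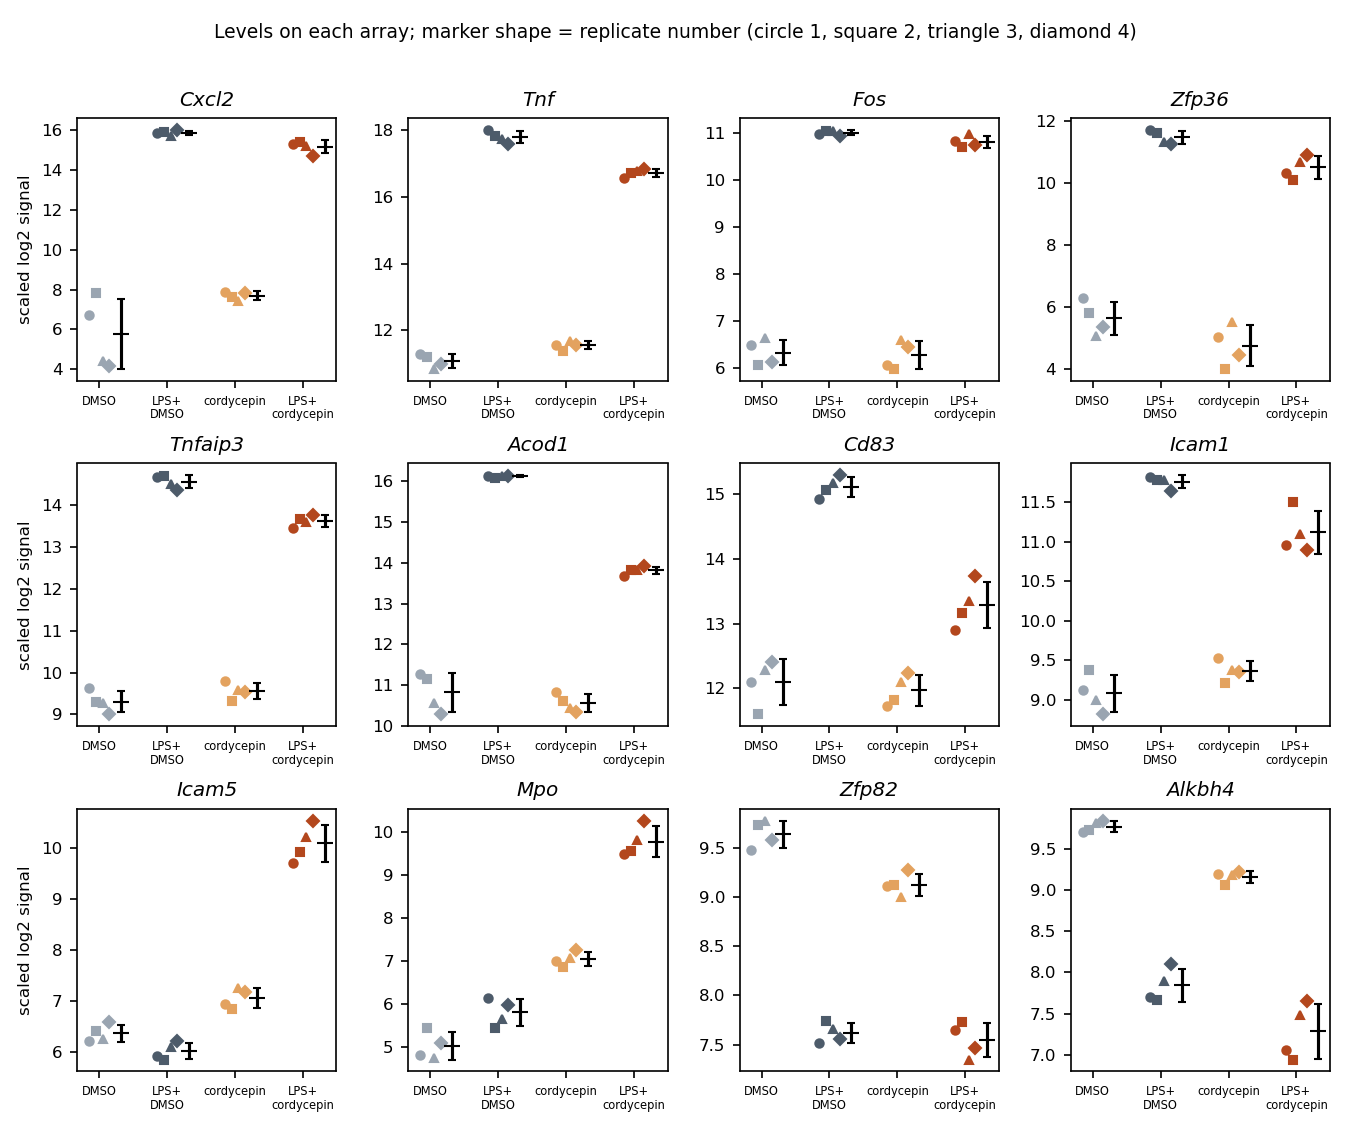
Scaled log2 signal on each array for 12 genes in the 4 groups. The marker shape gives the replicate number, the black bar the mean and the whiskers the SD of 4 arrays. LPS+cordycepin and cordycepin do not overlap for any of the 12 genes, which were all called on these same arrays, so this gives no separate support. Tnf reached 16.56 to 16.84 in LPS+cordycepin, and Icam5 and Mpo rose past 9 in LPS+cordycepin alone.

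Receptor, adhesion and effector genes were raised in 15 of 38 tested, with none lowered and a median of 0.82. Ccrl2, an atypical receptor that binds chemerin, had the largest change at 5.29 ± 0.21. Pim1, a kinase gene, rose by 3.65 and Phlda1 by 3.64. Acod1, the enzyme that makes itaconate, went from 10.83, 10.61, 10.45 and 10.33 to 13.68, 13.83, 13.83 and 13.91, so that the groups do not overlap (3.25 ± 0.18, adjusted p = 8.09e-09, limma). Ptgs2, the inducible cyclooxygenase, rose by 2.31. Icam1, an adhesion molecule for leukocytes, was at 9.53, 9.21, 9.39 and 9.36 and with LPS at 10.96, 11.50, 11.10 and 10.89, a change of 1.74 ± 0.14. The smallest named rise was that of Cd83, a marker of activated antigen-presenting cells, at 1.32 ± 0.19, from 11.72 to 12.24 without LPS to 12.90 to 13.74 with it. Il1rn, the antagonist of the interleukin-1 receptor, was not called (0.56, adjusted p = 0.182, limma).

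Most interferon-stimulated genes were not called at 60 min, although Ifnb1 itself rose. Of 38 tested, 5 were raised (13.2%, beside 1.71% of all genes) and 1 was lowered (2.63%, beside 1.19%). The median was 0.04. Those raised were Gbp2 (2.54), Isg15 (2.38), Isg20 (2.05), Oasl1 (1.82) and Gbp3 (1.71), and the one lowered was Stat2 (-1.09), a component of the interferon signalling complex. Gbp2 started from a dim level, 3.88 to 5.51 in cordycepin, and its change ran from 0.88 to 3.13 over the alternative settings. Isg15 read 12.72, 11.96, 11.16 and 11.10 in cordycepin and 14.54, 14.46, 13.99 and 13.46 with LPS, with replicate 1 highest in both groups. The call of Isg15 was lost without cordycepin replicate 3 or 4 or LPS+cordycepin replicate 1 (2.17 to 2.24), and that of Gbp3 without cordycepin replicate 2, 3 or 4 or LPS+cordycepin replicate 1 (1.61 to 1.65). Without all arrays of 1 replicate, calls were lost for Isg15 (replicates 1, 3 and 4), Gbp3 (1 and 3), Oasl1 (3, at 1.77) and Gbp2 (4, at 2.28). Rsad2 changed by 1.82 with an adjusted p of 0.102, and of 0.0445 with the culture day as a block (limma). It also passed, at the same change, without DMSO replicate 2.

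Lists of genes that carry the signal or the treatment's target were largely flat. In the Toll-like receptor 4 pathway, the adaptor Ticam1 (1.19) and the ubiquitin ligase Peli1 (1.03) were raised and none of 37 fell. The raised share was 5.41%, beside 1.71% of all genes tested. Peli1 changed by 0.98 without cordycepin replicate 3, or without all arrays of replicate 3, and was then not called. The receptor gene Tlr4 changed by -0.53 (adjusted p = 0.00206, limma), short of 2-fold. Among 23 genes of the polyadenylation machinery none was called, and 4 had an unadjusted p under 0.05 (limma), all upward. Over all 15875 genes tested, 2788 had such a p in either direction, a share near that of this list. The methods' t-test for single measurements called none either. Changes ran from -0.16 for Sympk to 0.82 for Pcf11, with -0.11 for Wdr33 and -0.05 for Cpsf4. The 13 reference genes lay between -0.18 and 0.20 with none called by limma or by that test and 1 at an unadjusted p under 0.05. Macrophage identity genes had 2 of 37 raised (5.41%), Id3 (4.57) and Id2 (2.59), which encode inhibitors of helix-loop-helix factors. Cell cycle genes had 1 of 31 (3.23%), the kinase inhibitor gene Cdkn1a (1.36). With so few members called, these shares are not read as a difference from the 1.71% of all genes. The size of the Id3 change rests on a dim starting level, 3.08 to 5.19 in cordycepin. It ran from 2.23 to 4.89 over the alternative settings. With spiked-in scaling the calls of Ticam1, Peli1 and Cdkn1a were not kept (0.87, 0.71 and 1.04). Over the 6 lists of cytokines, chemokines, NF-kB, immediate early, feedback and receptor genes, the fall of Dusp6 was the sole call downward by limma and by the methods' t-test, and 6 genes had a downward change with an unadjusted p under 0.05 (limma).

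**Figure D2:**
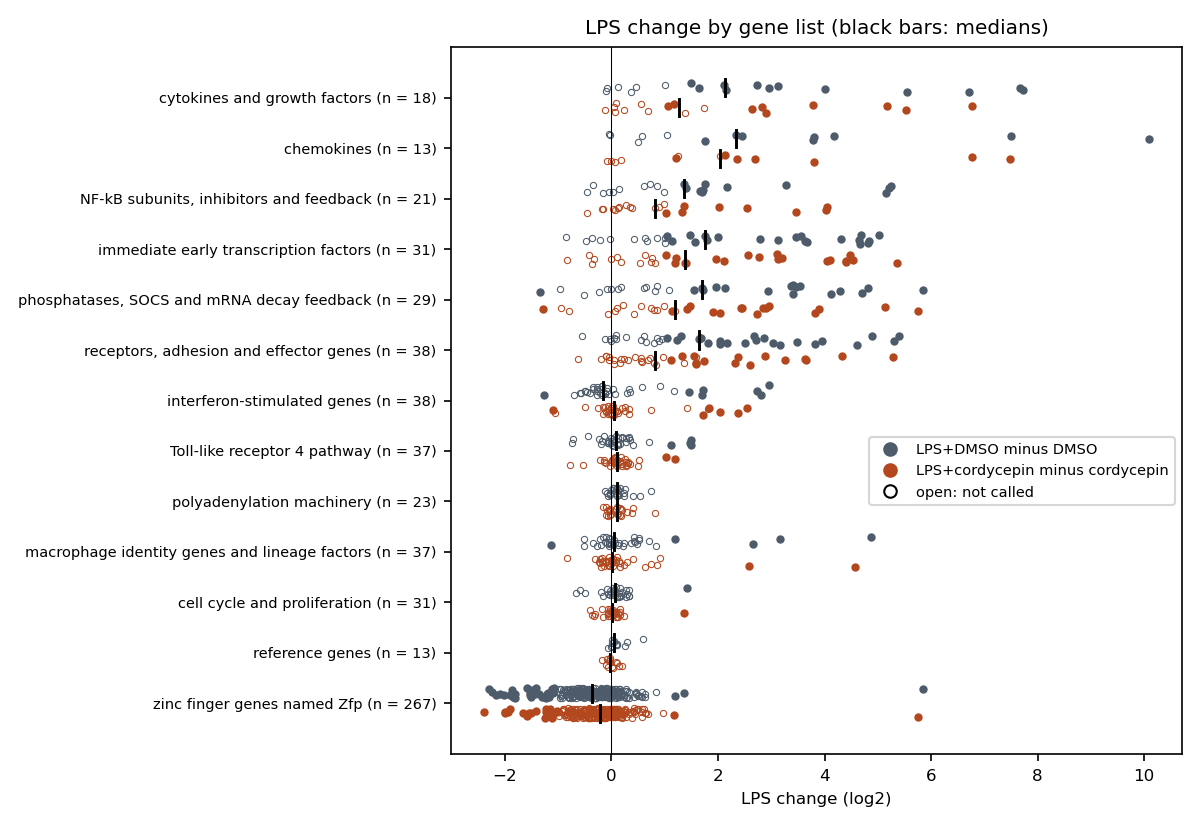
Each point is the LPS change of a tested member of a gene list (log2), without the drug in grey and within cordycepin in red. Filled points are called, open points are not, and black bars are medians. In cordycepin the median was 2.05 for chemokines and 1.38 for immediate early factors, and 0.10 for the polyadenylation machinery.

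Genes that fell included several with roles outside inflammation. Alkbh4, a demethylase, had the largest fall among RefSeq genes measured on all 8 arrays. It was at 9.20, 9.06, 9.18 and 9.23 in cordycepin and at 7.06, 6.94, 7.48 and 7.65 with LPS, which leaves more than a log2 unit between the groups (-1.89 ± 0.14, adjusted p = 2.69e-07, limma). The scaffold gene Cass4 followed with -1.76, Angptl4, an inhibitor of lipoprotein lipase, with -1.69, AI467606 with -1.55, the chromatin reader Brd1 and the host of small nucleolar RNAs Snhg5 with -1.53 each, Hyal1, a hyaluronidase, with -1.51, Bmf, a promoter of apoptosis, with -1.48, and the G protein gene Gna11 with -1.44. The change of Brd1 was -0.79 over the mean of its probes and was then not called. Of the genes lowered, 13 had no LPS+cordycepin array well above background. D130051D11Rik fell at least 2.88-fold, Zfp94 at least 2.14-fold and Zfp60 at least 1.57-fold. The call of Zfp60 was lost without replicate 3 (-1.68) or replicate 4 (-1.78).

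Zinc finger genes stood out by number among the falls. Of 267 tested genes whose symbol begins with Zfp, most of them DNA-binding C2H2 factors, 21 were lowered (7.87%) beside 1.19% of all genes, and 2 were raised, Zfp36 and Zfp568. Their median change was -0.22, and 73.4% lay below 0 beside 58.9% of all genes tested. Zfp82 was at 9.11, 9.12, 9.0 and 9.27 in cordycepin and at 7.65, 7.73, 7.35 and 7.46 in LPS+cordycepin (-1.58 ± 0.10, adjusted p = 5.68e-08, limma). These arrays are separated by more than a log2 unit. Zfp61 fell by 1.55 on the log2 scale and Zfp87 by 1.42. In DMSO 17 of the 21 were lowered by LPS as well. The count of 21 became 5 with normexp background correction, 12 in the authors' value table and 10 among genes well above background on all 16 arrays. Over all genes the lowered count dropped as well in these settings, from 189 to 70 of 15875, 120 of 15776 and 77 of 13812. At an unadjusted p under 0.05, 110 of the 267 were lower, beside 2788 of all 15875 genes tested that changed in either direction (limma).

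**Figure D3:**
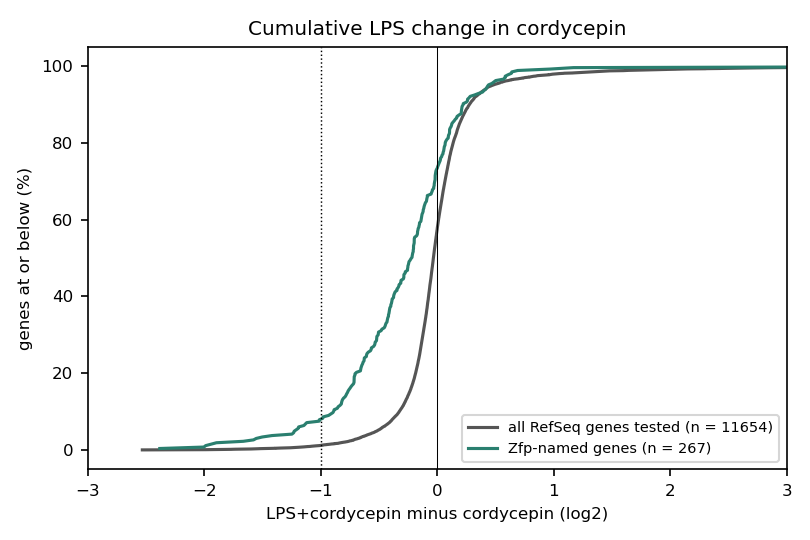
Cumulative share of genes (%) at or below each LPS change in cordycepin (log2), for the 267 genes named Zfp and for all 11654 RefSeq genes tested. The dotted line marks 2-fold down, and at 0 the Zfp curve stands at 73.4%.

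The response within cordycepin was then set against that in DMSO, which was measured on the other 8 arrays, so that no array is shared. In DMSO, LPS raised 332 genes (2.09%) and lowered 395 (2.49%) by the same threshold. Of the genes raised in cordycepin, 184 were also raised in DMSO, 67.9% of the cordycepin list and 55.4% of the DMSO list. For falls the overlap was 151 genes, 79.9% and 38.2%. No gene was called in opposite directions. Without DMSO replicate 2, 199 genes were raised in both settings. The genes that LPS raised in DMSO, a set chosen on its DMSO change, had a median change of 1.19 in cordycepin against 1.70 in DMSO, 322 of 332 lay above 0 in cordycepin, and 289 changed less than in DMSO. The genes raised in cordycepin, chosen on the other change, had a median of 1.77 in cordycepin and 1.69 in DMSO, and 142 of 271 changed less in cordycepin (median difference -0.08). By day, the cordycepin median of the genes raised in DMSO was 1.09, 1.26, 1.17 and 1.36 for replicates 1 to 4 (mean 1.22 ± 0.11, SD, n = 4 days). Genes lowered in DMSO had a median of -0.85 in cordycepin against -1.38, with days at -0.87, -0.84, -0.89 and -0.96. Of strong inductions, 113 of the 129 genes raised 4-fold or more in DMSO, and 37 of the 38 raised 16-fold or more, were raised in cordycepin too. Across the 852 genes called in either setting, a set chosen on these same changes, they correlated with a Pearson r of 0.89. Across all 15875 genes tested r was 0.77. Both values describe genes and not replicates.

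**Figure D4:**
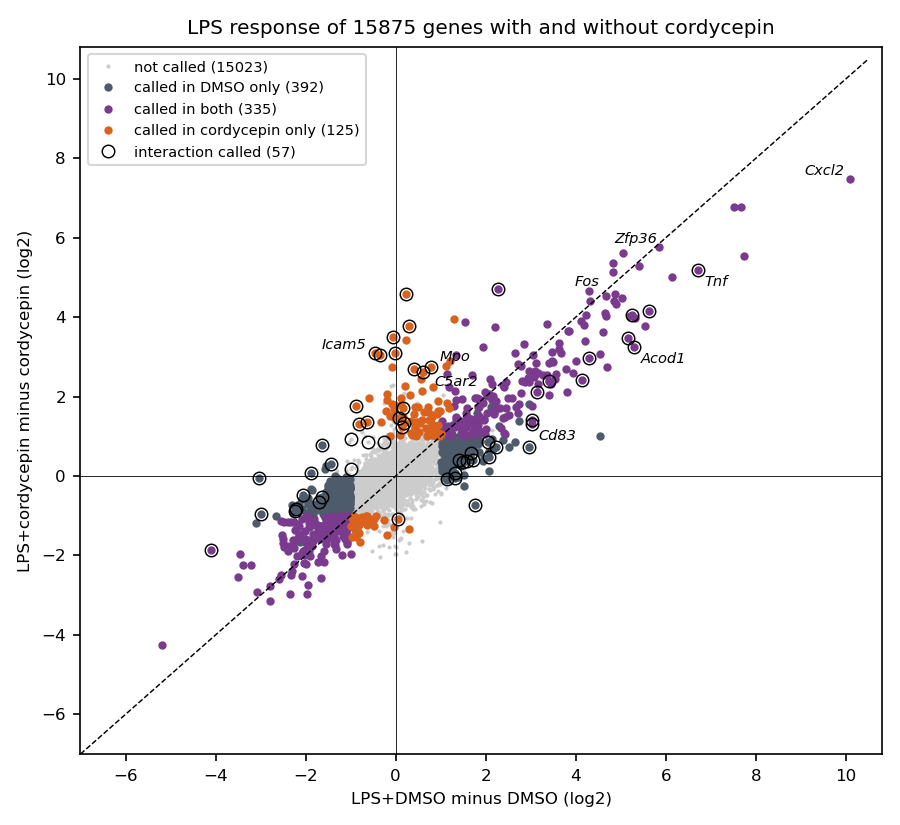
LPS change in DMSO (x axis, log2) against LPS change in cordycepin (y axis, log2) for 15875 genes. Colours give the setting in which a gene was called, rings mark the 57 genes whose 2 responses differed past the threshold, and the dashed line marks equal change. Of the called genes, 335 were called in both settings, 392 in DMSO alone and 125 in cordycepin alone.

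By role, again for genes chosen on their DMSO change, the shares differed as a description. Among immediate early factors raised in DMSO, 19 of 20 were also raised in cordycepin, with medians of 3.52 in DMSO and 2.94 in cordycepin. Phosphatase and decay genes kept 14 of 16 (3.40 and 2.60), chemokines 7 of 8 (3.80 and 2.53), NF-kB genes 8 of 11 (1.75 and 1.37), cytokines 8 of 12 (3.04 and 2.74) and receptor and effector genes 15 of 23 (2.67 and 1.59). Fos (4.67 in DMSO), Egr2 (4.31), Zfp36 (5.85), Dusp1 (4.11) and Ccl3 (2.45) had nearly the same change as within cordycepin, and the difference between the 2 responses was -0.13 for Fos, 0.10 for Egr2 and -0.08 for Zfp36, none past the threshold. All 12 cytokine genes and all 8 chemokines raised in DMSO changed less in cordycepin. The difference of Cxcl2 (-2.60, adjusted p = 0.254) did not pass the test (limma). Il1b was above background in neither group without LPS, so only its limits, at least 22.6-fold in cordycepin and at least 77.1-fold in DMSO, can be set side by side.

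A test of that difference, the interaction, called 25 genes with a smaller response in cordycepin (0.157%) and 32 with a larger one (0.202%). With the culture day as a block these counts were 47 and 62, and at an unadjusted p under 0.05 there were 1230 genes in all (limma). Without replicate 1, 3 or 4 the smaller responses numbered 4, 3 and 6, and the larger ones 17, 11 and 9, and without replicate 2 the larger ones numbered 19. Without DMSO replicate 2 alone there were 34 of each. Of the 25 smaller responses, 24 were genes raised in DMSO, and 11 of these were raised in cordycepin as well. Acod1 changed by 3.25 in cordycepin and 5.30 in DMSO (difference -2.04, adjusted p = 0.00141), and its LPS+DMSO arrays, at 16.09 to 16.14, lay above all LPS+cordycepin arrays. Cd83 had 1.32 and 3.03 (-1.71, adjusted p = 0.0104), with LPS+DMSO at 14.93 to 15.29, and Tnf had 5.18 and 6.71 (-1.54, adjusted p = 0.000374, limma). Traf1 (-1.69), Tnfaip3 (-1.19) and Tnip3 (-1.33) of the NF-kB list, Pde4b (-1.34), the apoptosis promoter Bcl2l11 (-1.20), the kinase gene Ikbke (-1.15), Sdc4 (-1.09) and Atf3 (-1.01) also passed. Among the alternative settings described below, Traf1, Ikbke and Tnfaip3 passed in 29, 29 and 28 of 37. Fewer were passed by Bcl2l11 (16 of 37), Atf3 and Sdc4 (13 of 37 each), Tnip3 (12 of 37) and Pde4b (10 of 36). Rcvrn, the photoreceptor protein recoverin, changed by -0.72 in cordycepin and 1.76 in DMSO, Mybpc3, a muscle protein, by 0.74 and 2.96, and Tspoap1 by 0.47 and 2.06. The levels of these 3 genes without LPS differed between the settings. Mybpc3 was at 10.60 to 10.87 in cordycepin and 4.72 to 6.25 in DMSO, Tspoap1 at 10.93 to 11.48 and 8.22 to 8.81, and Rcvrn at 6.91 to 8.12 and 5.33 to 5.66, with no overlap, so that their smaller changes started from a higher level. With the block, Zc3h12a (-1.96, adjusted p = 0.0399), Hcar2 (-1.78, adjusted p = 0.0452) and Trib1 (-1.37, adjusted p = 0.0418) had smaller responses too (limma).

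Of the 32 larger responses, 17 were genes raised in cordycepin, another 11 were genes lowered in DMSO, and 4 were neither. Icam5, a neuronal adhesion molecule, was at 6.94, 6.84, 7.26 and 7.17 in cordycepin and at 9.70, 9.93, 10.23 and 10.54 in LPS+cordycepin. In DMSO it lay at 6.22 to 6.58 and in LPS+DMSO at 5.85 to 6.21, so that its rise was seen within cordycepin alone (3.05 ± 0.16 against -0.35, difference 3.39, adjusted p = 3.96e-06, limma), and it passed in all 36 settings that gave a value for it. Prph, the neuronal filament peripherin, read 4.47, 4.58, 4.97 and 5.99 without LPS and 7.93, 8.01, 8.40 and 8.07 with it (3.10 against -0.47), but was well above background on 2 of 4 cordycepin arrays and on none in DMSO or LPS+DMSO, so that its difference is not exact. Mpo, the myeloperoxidase of neutrophil granules, went from 6.98, 6.86, 7.06 and 7.24 to 9.47, 9.55, 9.80 and 10.25 (2.73 against 0.78). Of 6 neutrophil markers, Ly6g, S100a9 and Ngp were well above background on none of the 8 arrays. S100a8 and Elane were so on all 8, and Camp on 3 arrays of each group. C5ar2, a receptor of the complement fragment C5a, went from 6.71, 6.95, 6.98 and 6.95 to 9.43, 9.72, 9.53 and 9.39 (2.62 against 0.61). These 4 genes had no LPS+cordycepin array within the range of the cordycepin arrays. Iqcn (at least 5.84-fold), Fam71a (at least 4.94-fold), Chadl (1.77 against -0.89) and the B cell marker Cd79a (2.69 against 0.41) were further members. Their differences passed in 28 of 35 settings for Iqcn and for Fam71a, 35 of 37 for Chadl and 18 of 36 for Cd79a. 2610507I01Rik was not changed past the threshold in cordycepin (-0.05) and fell at least 3.17-fold in DMSO, where no LPS+DMSO array read it well above background.

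The 87 genes raised in cordycepin and not in DMSO had a median of 1.54 in cordycepin and 0.47 in DMSO, and 16 of them passed the test of the difference. Besides Icam5, Mpo and C5ar2, the largest measured on all 8 arrays were Isg20, a nuclease gene (2.05 against 0.32), 9530057J20Rik (1.85 against 1.13) and Sdcbp2 (1.79 against -0.01), whose differences did not pass. The call of 9530057J20Rik was lost without cordycepin replicate 1 or 2 or LPS+cordycepin replicate 3 or 4 (1.67 to 1.79), or without all arrays of replicate 2 (1.74) or 3 (1.84). Falls called in cordycepin alone numbered 38. The largest were Snhg5 (-1.53 against -0.97), Etaa1 (-1.25), Zfp955b (-1.23), Armc7 (-1.22), Lyrm7 (-1.19) and Snhg10 (-1.13), and the call of Lyrm7 was lost without all arrays of replicate 1 (-1.16) or 4 (-1.08).

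Some of these rises lay just downstream of an LPS gene on the same strand. For each of 21475 tested probes with a position, it was asked, from the file positions (mm9), whether a gene that LPS had raised in DMSO, on arrays that the cordycepin change does not use, lay upstream on the same strand within 20000 bp. This count was added after the values were seen. Among all probes 83 (0.386%) had such a gene upstream, among probes raised in both settings 10 of 244 (4.1%), and among those raised in cordycepin and not in DMSO 13 of 111 (11.7%, for 11 of 100 genes). Among probes with a larger response that were raised in cordycepin it was 8 of 20 (40%, for 6 of 18 genes), and among probes lowered in cordycepin 0 of 282. The sets not raised in DMSO or with a larger response are themselves defined with the DMSO arrays. An upstream named gene, raised or not, lay within this distance for 3373 of all 21475 probes and 41 of 244 raised in both settings. It was 48 of 111 for those raised in cordycepin and not in DMSO, and 24 of 42 for all with a larger response. The sets thus do not share a baseline. On the downstream side, a gene raised in DMSO lay near 0.34% of all probes, 1.8% of those raised in cordycepin and not in DMSO, and none of those with a larger response. With the nearest upstream gene raised in cordycepin instead, the shares were 0.289% of all probes, 3.28% of those raised in both settings and 8.11% of those raised in cordycepin and not in DMSO, and on the downstream side they were 0.41%, 4.51% and 5.41%. Of the 83 probes after a gene raised in DMSO, 23 were raised in cordycepin and 10 in DMSO, and their median change was 0.13 in cordycepin and 0.17 in DMSO, so most of them did not rise. Probes that share an upstream gene are not independent.

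The 13 probes fall into 11 pairs. Icam4 and then Icam5 lie 2234 and 11129 bp after Icam1, which rose by 1.74 in cordycepin and 2.67 in DMSO. Icam4, a blood group adhesion molecule, was at 3.15, 3.87, 4.76 and 4.17 in cordycepin and at 7.72, 7.87, 8.05 and 8.11 in LPS+cordycepin, and changed by 3.95 against 1.30 in DMSO (difference 2.65, adjusted p = 0.0664, limma). Both genes after Icam1 thus had larger changes than Icam1 itself within cordycepin, where 1 of 4 cordycepin arrays of Icam4 was well above background. Mpo lies 18482 bp after Tspoap1, C5ar2 lies 12142 bp after the complement receptor gene C5ar1 (0.86 in cordycepin, or 1.5 and called without cordycepin replicate 1, and 2.66 in DMSO), and Fam71a lies 8084 bp after Atf3 (2.12 and 3.13). Iqcn lies 16506 bp after Jund (1.21 and 1.47), whose call in cordycepin was lost without LPS+cordycepin replicate 4 (0.98), or without all arrays of replicate 3 (1.17) or 4 (0.92). Plekhg2 (1.21 against 0.42) lies 17316 bp after Zfp36. The smallest differences were those of Tlcd2 (1.02 against 0.37) 5207 bp after Mir22hg, a probe of Eva1b (1.14 against 0.68) 9067 bp after Stk40, and Fam71f2 (1.04 against 0.81) 15472 bp after Hilpda, with adjusted p of 0.668 to 0.945 for the difference over all probes (limma). The brightest probe of Eva1b, which stood for the gene elsewhere, was not called in cordycepin. Its difference ran from -2.36 to 0.04 over the settings. The call of Tlcd2 was lost without replicate 1 of either group or LPS+cordycepin replicate 2 (0.97 to 0.98), or without all arrays of replicate 1 (0.93), 2 (0.98) or 3 (1.02). That of Fam71f2 was lost without replicate 4 of either group (0.89 to 0.98) or of all groups (0.84). The largest change of this kind was that of a lincRNA region on chromosome 1, read by 3 probes 15337, 15397 and 15475 bp after Btg2, at 135956757, 135956697 and 135956619. They changed by 4.57, 5.61 and 5.28 in cordycepin and by 0.24, 0.02 and -0.84 in DMSO, while Btg2 changed by 3.10 and 3.66. The brightest of the 3 read 5.53, 6.34, 5.34 and 5.38 in cordycepin and 9.89, 10.21, 10.34 and 10.45 with LPS, with no overlap. Whether these signals come from transcripts of the upstream gene or from the named gene was not tested.

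**Figure D5:**
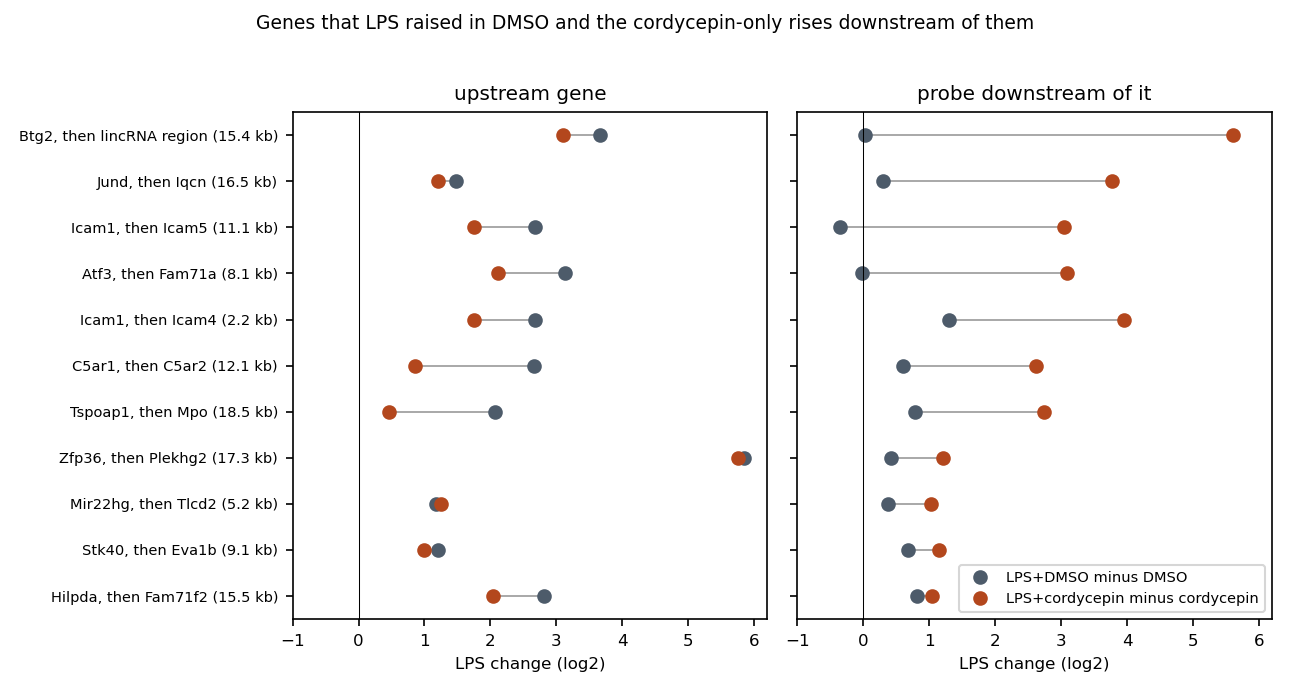
LPS change (log2) in DMSO and in cordycepin for genes that LPS raised in DMSO (left) and for the probes downstream of them that were raised in cordycepin and not in DMSO (right), with the distance in kb. Each upstream gene but Mir22hg changed no more in cordycepin than in DMSO, and the downstream probes, chosen as called in cordycepin and not in DMSO, changed by 1.02 to 5.61 in cordycepin.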

How the data were processed

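Cy3-labelled RNA from 16 cultures was hybridised to 1-colour Agilent arrays, and per the labels the submitters read them with Agilent Feature Extraction 10.10.1.1. The deposited spot intensities (the processed signal, background-subtracted by that software) were used. The deposited value table of the authors holds log2 values and served as an alternative. Its centring is unknown (column medians of 9.55 to 9.58), and its correlation with the log2 scanner signal was 0.995 to 0.998. Control and outlier spots were left out, spots of a probe averaged, and each array was scaled by its 75th percentile over probes well above background on all 16 arrays. The filter on dim signals asked for detection by every array in 1 or more groups, and the brightest probe stood for a gene.

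Group means of all 16 arrays were fitted with limma 3.58.1 in R 4.3.3, with Benjamini-Hochberg adjustment, and a call needed an adjusted p under 0.05 and 2-fold. The methods used limma and a t-test for single measurements. The latter was run as an alternative. Of 55681 probes, 27735 were named through RefSeq by accession, 3352 by symbol and 312 by synonym, and 24282 kept the name in the file. Named genes were the 12 largest rises and 12 largest falls with the same direction on all 4 days, the 5 largest limits each way, the 6 largest differences between responses each way, the 6 largest changes each way not called in DMSO, and list members. The members and lists were chosen with earlier results of these data known. The replicate number marks a culture day, and deviations of same-day cordycepin and LPS+cordycepin arrays correlated at 0.257 to 0.439, beside 0.0109 to 0.262 for different days on the same slide and -0.43 to -0.0692 between slides. Over all groups the means on 1 slide were 0.197 and 0.176, so the day is taken from the methods more than from these values, and fits with the day as a block are given where they change a call. Alternatives were other scalings, background correction, filters, probe averaging, blocks, slides, thresholds and left-out arrays.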

Additional observations from a re-analysis of the deposited data

Results flagged for a closer look

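Of 258 groups of 4 arrays checked, for 129 named genes in cordycepin and in LPS+cordycepin, 14 held an array far from the other 3 by Dixon's ratio of gap to range, and chance gives about 1 in 20. In cordycepin the ratio was 0.859 for C5ar2 and 0.912 for Ccrl2, where replicates 1 and 3 were low, and 0.848 for Csrnp1, 0.835 for Dusp6, 0.871 for Gbp3 and 0.843 for Stat2, where replicates 3, 2, 1 and 1 were high. In LPS+cordycepin it was 0.928 for Ccl4, 0.892 for Cxcl10 and 0.868 for Osm, all through replicate 2, 0.916 for Csf1 through replicate 3, 0.877 for Mybpc3 and 0.91 for Nfkbie through replicate 1, and 0.879 for Sympk and 0.909 for Zfp61 through replicate 4.

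The LPS change in cordycepin minus that in DMSO passed the test of the difference (limma, adjusted over all genes) for 24 of the genes described. It was below 0 for Rcvrn (-2.48), Mybpc3 (-2.22), Acod1 (-2.04), Cd83 (-1.71), Traf1 (-1.69), Tspoap1 (-1.60), Tnf (-1.54), Pde4b (-1.34), Tnip3 (-1.33), Bcl2l11 (-1.20), Tnfaip3 (-1.19), Ikbke (-1.15), Sdc4 (-1.09) and Atf3 (-1.01). It was above 0 for Mpo (1.96), C5ar2 (2.01), Cd79a (2.29), Chadl (2.66), 2610507I01Rik (3.00), Fam71a (3.11), Icam5 (3.39), Iqcn (3.48), Prph (3.57) and the lincRNA region after Btg2 (4.33, for its brightest probe). Iqcn, Fam71a and Prph were well above background on 0, 0 and 2 cordycepin arrays and on at most 1 array of each group without the drug, and 2610507I01Rik on no LPS+DMSO array, so that their differences rest on signals near background and have no order.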

How the results depend on the processing

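No called change or called difference of the 129 named genes turned sign under any alternative, and the signs of other genes were not followed. Among 129 named genes the LPS change crossed 0 for 3 uncalled ones, 2610507I01Rik, Wdr33 and Cpsf4, and the difference between responses crossed 0 for 38, Fos, Egr2 and Zfp36 among them, 0 of which were called. The balance of raised to lowered genes turned to 160 and 230 with spiked-in scaling and to 575 and 696 with no minimum fold. Raised genes in cordycepin (271) numbered 160 with spiked-in scaling, 146 with only genes well above background on all 16 arrays, 575 with no minimum fold and 426 at 1.5-fold, and 230 to 290 with 1 array or replicate left out. Lowered genes (189) numbered 70 with normexp, 120 in the authors' value table, 77 with the 16-array filter, 103 within the slide with replicates 1 and 2, 696 with no minimum fold and 454 at 1.5-fold, and 148 to 217 with arrays left out. Genes raised in both settings (184) numbered 116, 117, 410 and 308 with spiked-in scaling, the 16-array filter, no minimum fold and 1.5-fold, and 154 to 199 with arrays left out. Smaller responses (25) numbered 40 with the percentile over all probes, 3 with spiked-in scaling, 3 with no filter, 47 with the replicate block, 46 with the slide as a block, 2 within the slide with replicates 1 and 2, 41 with no minimum fold, 3 at an adjusted p under 0.01 and 41 at 1.5-fold, and 3 to 34 with arrays left out. Larger responses (32) numbered 9 with spiked-in scaling, 9 with no filter, 14 with the 16-array filter, 62 with the replicate block, 67 with the slide as a block, 3 within the slide with replicates 1 and 2 and 11 at an adjusted p under 0.01, and 9 to 37 with arrays left out. The median change in cordycepin of genes raised in DMSO (1.19) was 1.34 with spiked-in scaling, 0.52 with no minimum fold and 0.82 at 1.5-fold, and 1.14 to 1.26 with arrays left out. That of genes lowered in DMSO (-0.85) was -0.92 with quantile normalization, -0.91 with the percentile over all probes, -1.27 with spiked-in scaling, -0.98 with normexp, -0.94 in the value table, -0.91 within the slide with replicates 3 and 4, -0.39 with no minimum fold, -0.57 at 1.5-fold and -0.93 with the methods' t-test after adjustment, and -0.94 to -0.78 with arrays left out. The cause of these shifts was not tested, apart from the looser or stricter thresholds and filters, which by construction change how many genes can pass. Falls and differences between responses thus depended more on the processing than rises did, and dim genes have only limits. The methods' t-test gave 308 raised and 207 lowered genes unadjusted, and 269 and 152 after adjustment.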
